A study of Rattus norvegicus with 16 samples.

Results

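The enzymes described here control the committed step of glycolysis, at which fructose 6-phosphate gains a second phosphate. They are 7 rat genes: the phosphofructokinase subunits Pfkm, Pfkl and Pfkp, the bifunctional enzymes Pfkfb1 and Pfkfb2, and the fructose bisphosphatases Fbp1 and Fbp2. All probe sets whose only gene symbol is one of these were taken, which gave 14 of the 8799 probe sets on the array, and each was kept on its own. Expression was measured in total RNA of rat skeletal muscle on 16 single-colour arrays in 3 groups. EOM, extraocular muscle, has 4 arrays numbered 1 to 4 and no stated collection time. TA_6h, skeletal muscle labelled TA and collected at 6 hours, has 8 arrays (1, 1b, 2, 2b, 3a, 3b, 4a and 4b). TA_1h, the same muscle collected at 1 hour, has 4 arrays (1a, 1b, 2a and 2b). The labels name no strain, age, treatment or genotype, do not name the event that the hours are counted from, and do not tie a number to an animal. The arrays that share a number within a group were therefore averaged and counted as 1 sample, which gave 4 EOM, 4 TA_6h and 2 TA_1h samples, and joining TA_6h array 1 with 1b and 2 with 2b is an inference. The spread that the p-values rest on is that between these samples, and it may be technical.

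Phosphofructokinase phosphorylates fructose 6-phosphate and is active as a tetramer of subunits; the M subunit is the main one of skeletal muscle, L of liver, and P was named for platelets but is made in many tissues. Fructose bisphosphatase removes that phosphate again; Fbp1 is the isoform of liver and kidney and Fbp2 that of muscle. A bifunctional enzyme makes and breaks down fructose 2,6-bisphosphate, a small regulator that activates phosphofructokinase and inhibits fructose bisphosphatase; Pfkfb1 is the gene of the liver and skeletal muscle forms, which start at different promoters, and Pfkfb2 that of the heart form. Extraocular muscles move the eye and hold fibre types that limb muscles lack.

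The sequences shown first are the promoters of Pfkfb1 and Pfkl, chosen because Pfkl and 1 of the 4 Pfkfb1 probe sets, with both of Fbp2, were called lower in EOM than in both TA groups. They come from RefSeq's rat annotation on build GRCr8, which had a promoter for 6 of the 7 genes, and Fbp2 was not among them. The Pfkfb1 window, chrX:22941926-22942175 on the plus strand, is the 250 bases before the annotated start and lies within the span of the gene. The Pfkl window, chr20:10663715-10663906 on the plus strand, holds the 192 bases of such a window that lie before the gene entry. Capitals mark the E-box CANNTG, a palindrome bound by basic helix-loop-helix factors, the family of the myogenic factors.
Pfkfb1: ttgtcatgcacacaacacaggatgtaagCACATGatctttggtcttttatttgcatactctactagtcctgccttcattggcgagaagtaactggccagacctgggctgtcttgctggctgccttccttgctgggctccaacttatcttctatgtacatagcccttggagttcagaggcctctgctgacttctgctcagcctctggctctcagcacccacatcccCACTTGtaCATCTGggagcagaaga
Pfkl: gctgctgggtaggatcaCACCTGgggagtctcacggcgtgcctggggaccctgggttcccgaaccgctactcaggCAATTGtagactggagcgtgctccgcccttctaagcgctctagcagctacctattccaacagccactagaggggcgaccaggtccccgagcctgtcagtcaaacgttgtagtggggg
An E-box was found 3 times in the Pfkfb1 window and 2 times in the Pfkl window. Over all 33469 rat promoters it was present in 65.54% of windows of 250 bases and in 56.44% of windows of 192 bases, so most windows of these lengths hold one. The promoters of Pfkfb2 held 3, those of Fbp1 and Pfkp 1 each, and that of Pfkm 0.

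Several properties of the arrays bear on every value below. The deposited values are linear intensities, and each array's mean without the highest and lowest 2% lies between 799.96 and 800.0, which shows that the authors had scaled them. In the EOM columns 24.3% of intensities lie below 0, while no TA intensity does, so in every comparison of EOM with TA the muscle and the step that summarised the probes cannot be told apart. Intensities were raised to a floor of 56.5, the 25th percentile of all values, and analysed on the log2 scale. The beta-actin control had a middle over 3′ intensity ratio of 0.891 to 0.978 on the EOM arrays, 0.815 to 1.28 on 7 TA arrays, and 0.146 to 0.390 on the other 5, called low-ratio arrays below, which were TA_6h 3a, 3b, 4a and 4b and TA_1h 2b. They include every array of TA_6h samples 3 and 4. Leaving the low-ratio arrays out, or keeping only them as TA, therefore also leaves fewer TA_6h samples. The EOM arrays carried the markers of that muscle: Myh13, the extraocular myosin heavy chain, averaged 7677 ± 346 in EOM and 240.1 ± 98.2 in TA_6h (SD, n = 4 samples each), and all 3 listed myosins were called higher. Of the marker lists of other cells, 5 of 6 macrophage and other immune genes were called higher in EOM than in TA_6h, with a summed intensity of 11775 to 16973 per array in EOM against 2807 to 5690 in TA_6h. The Schwann cell and nerve list had 4 of 5 higher, with sums of 8452 to 12793 in EOM against 1093 to 1854 in TA_6h, and the fibroblast list 4 of 7, with sums of 60377 to 77884 in EOM against 37346 to 69466 in TA_6h. The fast fibre list had 5 of 10 genes lower in EOM, with sums of 117165 to 137501 against 147631 to 314736 in TA_6h. The slow fibre list had 3 of 6 lower and 1 higher, with sums of 37752 to 38612 in EOM against 48375 to 84019 in TA_6h, and the adipocyte list 3 of 6 higher and 2 lower. Of the 5 tested of 7 liver markers 1 was called higher and 2 lower, and Tat and Ttr were above the floor on no EOM array. Of the 2 measured platelet markers 1 was called higher. The smooth muscle list had 1 of 4 higher and 2 lower, the red blood cell list 1 of 4 lower, and the endothelial list 0 of 3 called. Over all tested probe sets 21.9% were called higher and 25.3% lower in EOM than in TA_6h. The part of these cell types in the results below was not tested, and in whole muscle fewer cells of a type and less RNA per cell cannot be told apart.

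Fbp2, the muscle fructose bisphosphatase that turns fructose 1,6-bisphosphate back to fructose 6-phosphate, was far lower in EOM than in TA muscle on both of its probe sets. On AJ005046_g_at the intensities of EOM arrays 1 to 4 were 408, 586, 586 and 467. The TA_6h arrays ran from 3486 through a median of 4185 to 6139, and TA_1h arrays 1a, 1b, 2a and 2b had 4486, 4743, 6172 and 5337. Every TA array lay above every EOM array, and the share of all tested probe sets that separate in this way was not counted. The difference of EOM from TA_6h was -3.13 ± 0.20 on the log2 scale (limma standard error, adjusted p = 1.93e-06), an 8.77-fold lower level, and that from TA_1h was -3.35 ± 0.24 (limma adjusted p = 8.29e-06), or 10.2-fold lower. On AJ005046_at the EOM arrays read 106, 190.4, 146 and 107. The TA_6h arrays lay between 806 and 1908 with a median of 1378, and the TA_1h arrays read 1959, 1916, 2719 and 1145. Again no EOM array reached the lowest TA array, and the differences were -3.30 ± 0.28 from TA_6h (limma adjusted p = 1.21e-05) and -3.79 ± 0.34 from TA_1h (limma adjusted p = 3.22e-05). Both probe sets were called lower against both TA groups in all 27 alternative analyses. The 5 low-ratio TA arrays read 806 to 1368 on AJ005046_at, all under the 1388 to 2719 of the other 7. Such a separation of the low-ratio arrays was found for 8.91% of all tested probe sets. On AJ005046_g_at their 4152 to 6139 overlapped the 3486 to 6172 of the others.

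The counterpart of Fbp2 from liver and kidney, Fbp1, was not above the floor on any array. Its single probe set, M86240_at, ran from -267 to -154 in EOM, from 24.2 to 44.5 in TA_6h and from 19.1 to 35.9 in TA_1h. It was left out of the test, and below the floor its levels have no order.

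**Figure D1:**
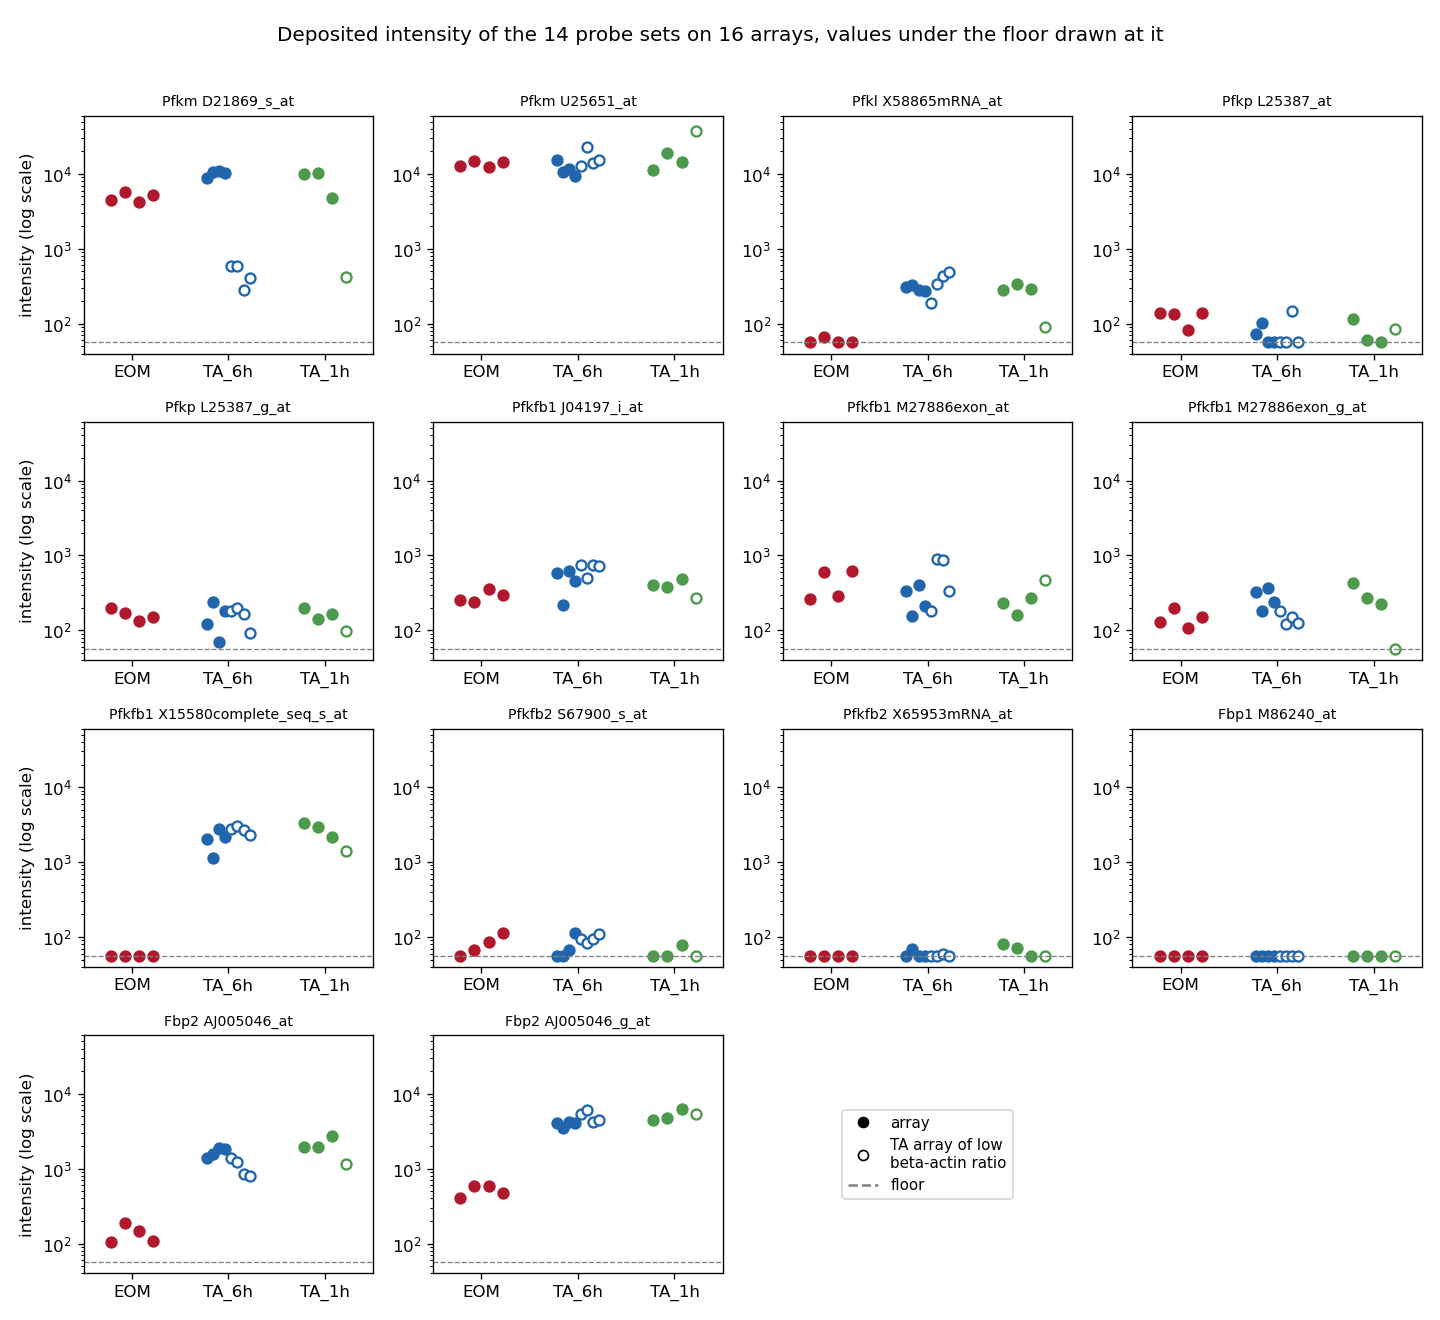
Intensity (log axis) of the 14 probe sets on each of the 16 arrays, with values under the floor of 56.5 drawn at it (dashed line); each point is 1 array, EOM left of TA_6h and TA_1h, and open points are the 5 low-ratio TA arrays. The EOM points lie under all TA points for both Fbp2 probe sets, for Pfkl and for Pfkfb1 X15580complete_seq_s_at. The share of all tested probe sets with every EOM array under every TA array was not counted. The open points of Pfkm D21869_s_at lie far under the other TA points.

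Pfkfb1, the bifunctional enzyme of liver and skeletal muscle, was read by 4 probe sets that did not behave alike. On X15580complete_seq_s_at the EOM arrays had 25.3, -182, 12.5 and -71.8, all under the floor. The TA_6h arrays ran from 1120.2 through a median of 2491 to 3069, and the TA_1h arrays had 3358, 2910.5, 2174 and 1424. EOM therefore has only a bound there, set by the floor of 56.5: its level was at least 40.02-fold lower than in TA_6h (log2 difference -5.32 ± 0.24, limma adjusted p = 3.07e-07) and at least 41.5-fold lower than in TA_1h (-5.38 ± 0.30, limma adjusted p = 1.96e-06). The EOM samples were all set to the floor and so add no spread of their own, and these standard errors and p-values may be too small. With the floor at the 40th percentile the differences were -4.07 and -4.13, and at the 10th -7.12 and -7.18. Such a floor value is common in the EOM columns: 680 probe sets called lower than TA_6h have every EOM array at the floor.

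On J04197_i_at, Pfkfb1 read 254, 239, 359 and 296 in EOM. The TA_6h arrays ran from 216 through 606 to 748, and the TA_1h arrays read 403, 385, 486 and 272. Here the groups overlapped, and EOM was called lower than TA_6h (-0.93 ± 0.24, limma adjusted p = 0.00957) but not than TA_1h (-0.42 ± 0.29, limma adjusted p = 0.294). Without the 5 low-ratio TA arrays, and so with fewer TA_6h samples, the call against TA_6h was lost (-0.62, limma adjusted p = 0.0704).

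The exon probe sets of Pfkfb1 did not pass the test against either TA group. M27886exon_at read 265, 609, 288 and 626 in EOM. The TA_6h arrays ran from 156 through 335 to 905 and the TA_1h arrays read 232, 159, 269 and 469.7. The groups overlapped, and the difference from TA_6h was 0.26 ± 0.38 (95% interval -0.60 to 1.12, limma adjusted p = 0.602). M27886exon_g_at read 128, 201, 109 and 149 in EOM, from 120.3 through 181 to 371 in TA_6h, and 428, 268, 224 and 33.5 in TA_1h. Its difference from TA_6h was -0.45 ± 0.38 (limma adjusted p = 0.351). It became a call of lower without the 5 low-ratio TA arrays (-0.90, limma adjusted p = 0.0375), which read 33.5 to 182 on it against 179 to 428 on the other 7. Against TA_1h without its low-ratio array it was called lower as well (-0.95, limma adjusted p = 0.0311). From that single array EOM differed the other way, by 1.34. The array has no spread of its own and read 33.5, under the floor, so this size rests on the floor. The sources used here do not give which transcript of Pfkfb1 each probe set reads, and levels of different probe sets cannot be ranked.

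Pfkfb2, the heart form of the bifunctional enzyme, was close to the floor in all groups. S67900_s_at read 44.4, 66.8, 86.5 and 113 in EOM, from 12.3 through 87.4 to 114 in TA_6h, and 25.9, 14.5, 78.4 and 54.4 in TA_1h. The difference of EOM from TA_6h was -0.06 ± 0.26 (95% interval -0.64 to 0.51, limma adjusted p = 0.855). X65953mRNA_at was above the floor on 0 of 4 EOM arrays, 2 of 8 TA_6h arrays and 2 of 4 TA_1h arrays, and was not called against either. Its calls changed with the treatment of values under the floor. With the floor at the 10th percentile X65953mRNA_at was called lower in EOM than in TA_6h (-1.09, limma adjusted p = 0.0316) and TA_1h (-1.38, limma adjusted p = 0.0328), and with log2(value + 50) likewise (-0.58 and -0.74). After quantile scaling S67900_s_at was called higher in EOM than in TA_1h (0.95, limma adjusted p = 0.0266).

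Pfkm, the muscle subunit of phosphofructokinase, gave different readings on its 2 probe sets. U25651_at was bright on every array: 12701, 14812, 12382 and 14359 in EOM. The TA_6h arrays lay between 9332 and 23170 with a median of 13210, and the TA_1h arrays read 11331, 19138, 14218 and 37537. The groups overlapped throughout. EOM differed from TA_6h by 0.01 ± 0.21 (95% interval -0.45 to 0.47, limma adjusted p = 0.972), and from TA_1h by -0.45 ± 0.25 (limma adjusted p = 0.197).

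On D21869_s_at, Pfkm read 4450, 5809, 4232 and 5162 in EOM. TA_6h arrays 1, 1b, 2 and 2b read 8718, 10493, 10834 and 10356, and arrays 3a, 3b, 4a and 4b read 581.9, 585, 283 and 412. TA_1h arrays 1a, 1b, 2a and 2b read 10085, 10392, 4834 and 420. The 5 low-ratio TA arrays thus read 283 to 585 and the other 7 TA arrays 4834 to 10834, a ratio of medians of 24.7, which ranked 29 of the 7640 probe sets tested. For 8.91% of all tested probe sets every low-ratio TA array lay under every other TA array. Over all samples EOM was not called different from TA_6h (1.20 ± 1.13, limma adjusted p = 0.401) or from TA_1h (0.35 ± 1.38, limma adjusted p = 0.869). Without the 5 low-ratio arrays it was called lower than TA_6h (-1.05, limma adjusted p = 0.0263), and against only those arrays it was called higher (3.45, limma adjusted p = 0.000372). With the low ratio as a term, in a fit that counted each array as its own sample, it was called lower than both TA groups. The differences were -1.01 from TA_6h (limma adjusted p = 0.00405) and -0.75 from TA_1h (limma adjusted p = 0.0317). That fit treats arrays that share a number as independent, so its p-values may be too small. The direction on this probe set thus turned with 5 arrays, while U25651_at of the same gene was not called against TA_6h in any of these settings. The 2 arrays of TA_1h sample 2, 2a and 2b, differed by 3.53 on the log2 scale on D21869_s_at, against a median of 0.52 over all tested probe sets for that pair.

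**Figure D2:**
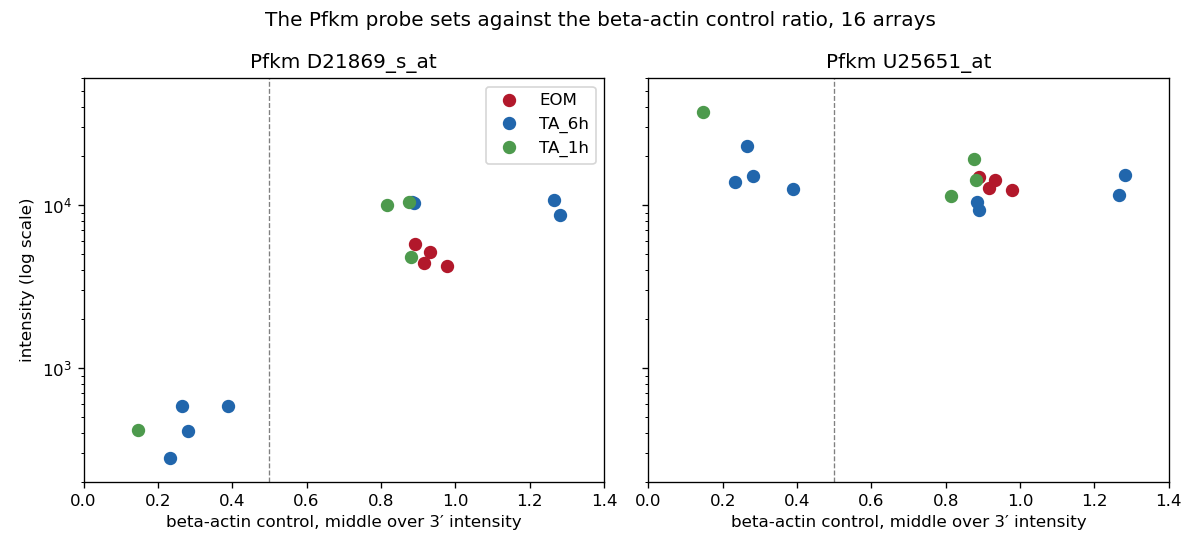
Intensity (log axis) of Pfkm D21869_s_at, left, and U25651_at, right, against the middle over 3′ intensity ratio of the beta-actin control on the 16 arrays, coloured by group, with the ratio of 0.5 as a dashed line. On D21869_s_at the 5 arrays left of the line read 283 to 585 and all others 4232 or more; on U25651_at the arrays on both sides of the line overlap.

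Pfkl, the liver subunit, was lower in EOM. Its probe set X58865mRNA_at read -24.4, 66.0, -99.8 and -79.0 in EOM, above the floor on 1 of 4 arrays. The TA_6h arrays ran from 192 through 316 to 489, and the TA_1h arrays read 279.9, 339, 287 and 89.3. No EOM array reached the lowest TA array, a separation whose share over all tested probe sets was not counted. The difference from TA_6h was -2.44 ± 0.25 (limma adjusted p = 3.72e-05) and that from TA_1h -1.92 ± 0.30 (limma adjusted p = 0.000888). The sizes rest on the floor, where 3 of 4 EOM arrays sit: with it at the 40th percentile they were -1.25 and -0.87, and at the 10th -3.95 and -3.43. The standard errors and p-values rest on it too, because those 3 arrays were given the same value. Against TA_6h the call held in all 26 alternatives in which it was tested, but with 3 of 4 EOM arrays at the floor it had little room to change. None of the alternatives separates the muscle from the step that summarised the probes. Against TA_1h it held in 25 of 26 and was lost with only the low-ratio array 2b as TA_1h (-0.61), a single array with no spread of its own.

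Pfkp, the platelet-type subunit, was dim, and its 2 probe sets were not called alike. L25387_at read 139, 136, 82.3 and 138 in EOM. The TA_6h arrays ran from 28.5 through 46.5 to 149, above the floor on 3 of 8, and the TA_1h arrays read 117, 61.0, 29.8 and 84.0. EOM was called higher than TA_6h (0.77 ± 0.25, limma adjusted p = 0.0268), 1.71-fold on the floored scale, and not called against TA_1h (0.67 ± 0.30, limma adjusted p = 0.112). This call held in 17 of 26 alternatives; with the floor at the 40th percentile the difference was 0.01 (limma adjusted p = 0.952), and without the 5 low-ratio arrays it was 0.79 (limma adjusted p = 0.0725). It was also lost without EOM sample 1, 2 or 4 or TA_6h sample 2 or 3, with differences of 0.66 to 0.72 at limma adjusted p-values of 0.0622 to 0.0725, and with the number as a random block (0.0612) and against only the low-ratio arrays (0.105). Against TA_1h it was called higher after quantile scaling (1.14, limma adjusted p = 0.00612) and without EOM sample 3 (0.85, limma adjusted p = 0.0427). L25387_g_at read 198, 173, 135 and 148 in EOM, from 70.3 through 173 to 242 in TA_6h, and 197, 143, 167 and 97.3 in TA_1h. It was not called against TA_6h (0.15 ± 0.22, limma adjusted p = 0.602).

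Together, 13 of the 14 probe sets passed the filter of being above the floor on at least 4 arrays. Against TA_6h, 1 was called higher and 5 lower, which is 6 of 13, near the 47.2% of all 7640 tested probe sets that were called (21.9% higher and 25.3% lower). Against TA_1h, 0 were called higher and 4 lower, where 37.2% of all tested probe sets were called (17.7% higher and 19.5% lower). The number of calls therefore does not set these enzymes apart; their sizes do not enter that count. The median difference of the 13 was -0.06 against TA_6h and -0.42 against TA_1h, beside -0.11 and -0.09 over all tested probe sets. The comparisons with the TA groups share the EOM samples. The filter itself lets in probe sets that are above the floor in TA alone, such as X15580complete_seq_s_at, so these counts describe the members that passed and support nothing further.

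**Figure D3:**
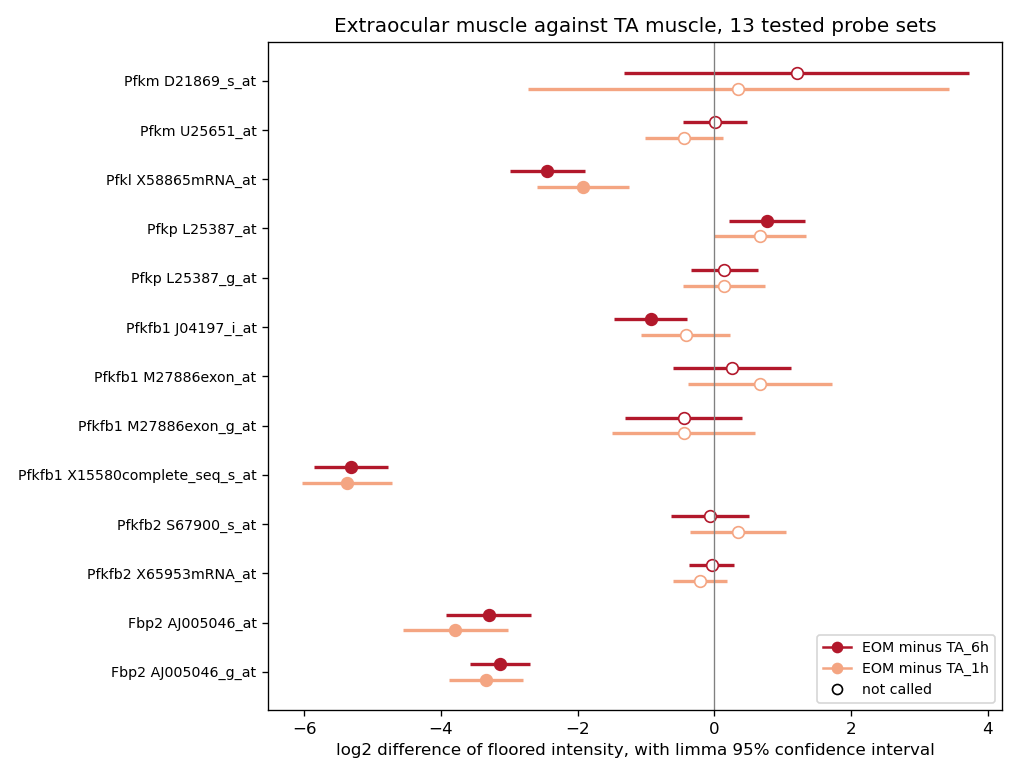
Log2 difference of EOM from TA_6h (dark) and from TA_1h (light) for the 13 tested probe sets, with limma 95% confidence intervals; filled points were called and open points were not. The 2 Fbp2 probe sets, Pfkl and Pfkfb1 X15580complete_seq_s_at lie left of 0 with intervals that do not reach it, from -1.92 to -5.38, and Pfkm D21869_s_at has the widest intervals.

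Between the TA collection times, 0 of the 13 probe sets were called, as were 0 of all 7640 (0% called). At an unadjusted limma p under 0.05 there were 0 members and 424 of all tested probe sets, or 5.55%. The differences of TA_6h from TA_1h ran from -0.85 ± 1.38 for Pfkm D21869_s_at to 0.52 ± 0.30 for Pfkl, and the lowest limma adjusted p was 0.965. For Pfkfb1 X15580complete_seq_s_at the difference was -0.05 ± 0.30 (95% interval -0.72 to 0.61), and for Fbp2 AJ005046_g_at -0.21 ± 0.24 (95% interval -0.76 to 0.33). TA_1h has 2 samples, and these intervals are not adjusted for the 7640 tests, so changes beyond them could also go uncalled. Col1a1 of the fibroblast list differed by 1.30 ± 0.32 and was not called (limma adjusted p = 0.514). With only the TA groups in the fit, the standard error for Pfkfb1 X15580complete_seq_s_at was 0.36. Within only the low-ratio TA arrays, where TA_1h is the single array 2b, Pfkm U25651_at was called lower in TA_6h (-1.25), and Pfkl (1.94) and Pfkfb1 X15580complete_seq_s_at (0.92) higher, at limma adjusted p-values of 0.0228 to 0.0361 that assume this array varies like the other groups.

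The steps around the fructose phosphates were read through 46 measured genes of 4 lists, each by its brightest probe set, of which 44 were tested. Against TA_6h, 8 were called higher and 12 lower in EOM, with a median of -0.14, and against TA_1h 7 were called higher and 10 lower. Those 20 and 17 of 44 lie near the 47.2% and 37.2% called among all tested probe sets. Of the 12 tested genes of upper glycolysis and its neighbours, 5 were called higher and 2 lower (median 0.85). Over all tested probe sets 21.9% were called higher and 25.3% lower, and whether the list stands apart was not tested. This list mixes steps before phosphofructokinase, side branches, and the aldolases Aldoa and Aldoc, which act after it. Aldoc, an aldolase that splits fructose 1,6-bisphosphate, averaged 1163 ± 51.0 in EOM and 239.7 ± 85.4 in TA_6h (SD, n = 4 each; log2 difference 2.42, limma adjusted p = 5.77e-05). Hk1, the hexokinase of most tissues, averaged 1357 ± 223 in EOM and 569 ± 111 in TA_6h (1.28, limma adjusted p = 0.000374), while Hk2, the hexokinase typical of insulin-responsive muscle, averaged 1095 ± 152 and 1890 ± 206 (-0.72, limma adjusted p = 0.0155). Slc2a4, the insulin-responsive glucose transporter, was lower (-1.10), and Slc2a5, a fructose transporter (1.01), Tkt, transketolase of the pentose phosphate pathway (1.53), and Sord, sorbitol dehydrogenase (0.95), were higher. Aldoa, the muscle aldolase, was not called (1.36, limma adjusted p = 0.0726).

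Of the 12 tested genes of lower glycolysis and lactate, 1 was called higher and 7 lower in EOM than in TA_6h (median -0.63), beside the same shares over all probe sets. The difference from the upper glycolysis list was not tested. Ldhb, the heart-type lactate dehydrogenase subunit, averaged 13784 ± 793 in EOM and 6369 ± 1909 in TA_6h (1.17, limma adjusted p = 0.00183). Slc16a3, a lactate exporter, averaged 1710 ± 123 in EOM and 9240 ± 3469 in TA_6h (-2.34, limma adjusted p = 8.75e-05). Eno3, the muscle enolase (-1.02), Pkm, pyruvate kinase of muscle (-0.72), and Pgam1, a phosphoglycerate mutase (-0.69), were also lower, although 2 other probe sets of Pgam1 were called higher. Gpd1, the cytosolic glycerol 3-phosphate dehydrogenase, was at the floor on all EOM arrays, so its difference of -3.67 (SE 1.32) rests on the floor; like Pfkm D21869_s_at it split with the beta-actin ratio, with 64.7 to 134 on the 5 low-ratio TA arrays and 3267 to 5071 on the other 7. Without the low-ratio arrays this list had 1 higher and 7 lower, and the upper glycolysis list 5 and 2. The called genes were not all the same: Slc2a5 (0.93) and Sord (0.55) were no longer called, and Aldoa (2.39) and Taldo1, transaldolase (1.10), were. Scaling each array to the same median ended the call of Hk2 (-0.61), and no named gene of the 4 lists changed sign against TA_6h under that or quantile scaling.

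Of the 4 tested genes of gluconeogenesis and glucose output, 1 was called: Slc37a4, the glucose 6-phosphate transporter, averaged 1234 ± 136 in EOM and 6988 ± 263 in TA_6h (-2.50, limma adjusted p = 1.10e-06). Of the 16 tested kinases, phosphatases and other bifunctional isoforms, 2 were called higher and 2 lower. The regulatory subunits of protein kinase A, which phosphorylates the liver form of the bifunctional enzyme, went both ways: Prkar1a was higher (1.27) and Prkar2b higher (0.71), and Prkar2a was lower (-0.49), a call lost under that scaling (-0.38) and when the low-ratio arrays were left out (-0.46). Prkaa1, a catalytic subunit of the AMP-activated kinase, was lower (-1.08), but not after quantile scaling (-0.70). The sizes for Prkar2b and Prkaa1 rest in part on the floor. Prkar2b was above it on 3 of 8 TA_6h arrays, and Prkaa1 on 2 of 4 EOM arrays. The other bifunctional isoforms were not called: Pfkfb3 differed by -1.09 ± 0.53 (limma adjusted p = 0.116) and Pfkfb4 by -0.15 ± 0.15 (limma adjusted p = 0.419).

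**Figure D4:**
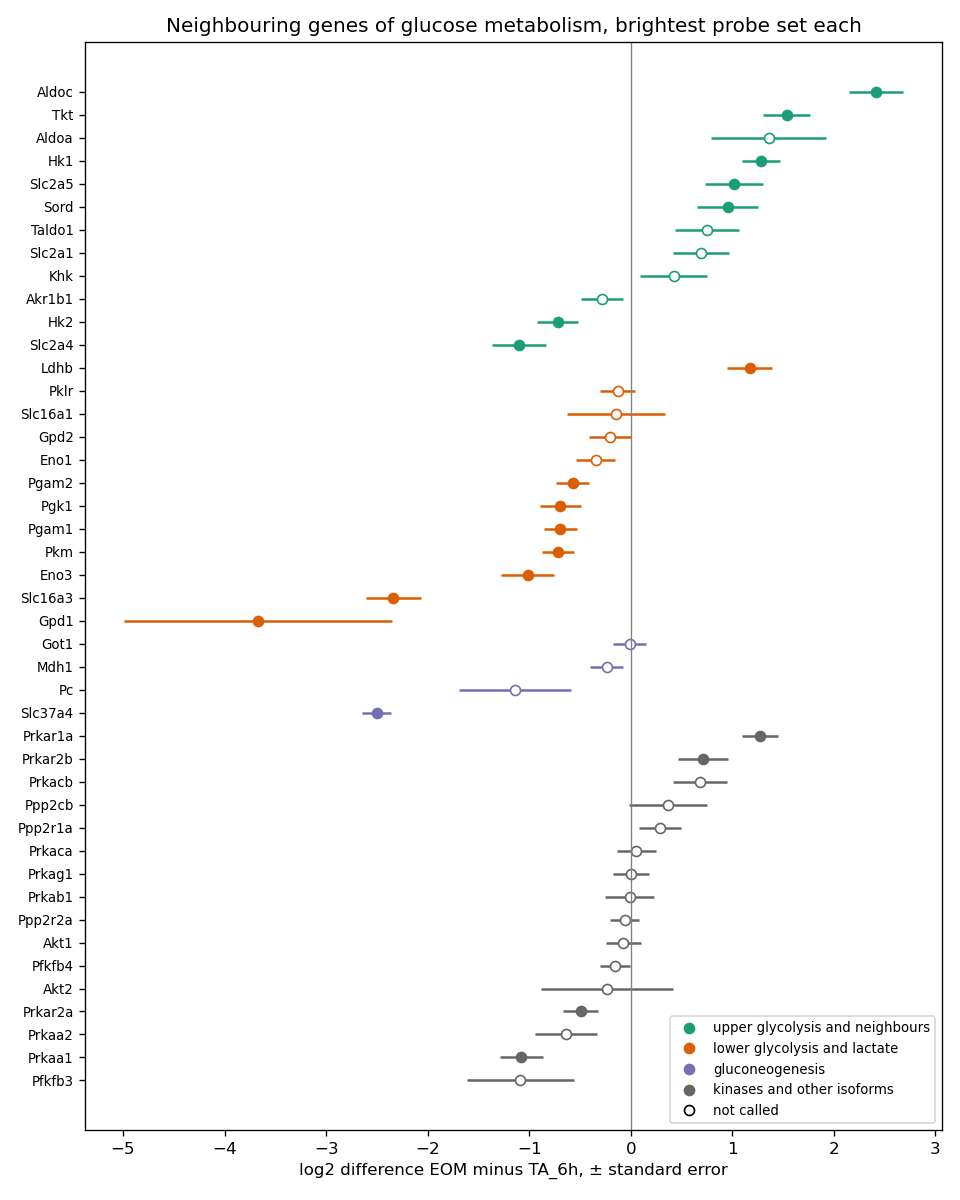
Log2 difference of EOM from TA_6h, with its standard error, for the 44 tested neighbouring genes, each by its brightest probe set and grouped by list; filled points were called. In the list of upper glycolysis and neighbours 5 genes were called right of 0 and 2 left of it. In the list of lower glycolysis and lactate 1 was called right and 7 left.

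Over the 10 samples, the members above the floor on all arrays were set beside 3312 probe sets of other named genes by Pearson's r of log2 values. These values are a description, since the samples fall together by group and by beta-actin ratio. The pattern of Fbp2 AJ005046_g_at was most like those of C8h15orf61 (0.992), Acat1 (0.991) and Bin1 (0.989), and that of AJ005046_at most like Mapk14 (0.988), Prmt7 (0.988) and Eif4ebp1 (0.982). The 2 Fbp2 probe sets correlated at 0.976 with each other. Pfkm D21869_s_at was most like Eef2 (0.989), Vcp (0.989) and Gyg1 (0.988), and its r with U25651_at was -0.54. U25651_at was most like Ndufa5 (0.918), Myl11 (0.896) and Ndufab1 (0.884). Pfkfb1 J04197_i_at was most like Capns1 (0.973), Myh7 (0.966) and Timm29 (0.958), and M27886exon_at most like Myrf (0.905). For Pfkp L25387_g_at the highest r was 0.762, with Vgf.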

How the data were processed

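The 16 single-colour arrays hold 8799 probe sets each. The deposited intensities are linear, and the sources used here do not give how the authors summarised and scaled them, so that was read from the values. The members and gene lists were chosen with earlier results of these data known. Intensities under the 25th percentile of all values were set to that floor before the log2 step. The 7640 probe sets above it on at least 4 arrays, without the 59 controls, were tested with lmFit and eBayes of limma 3.58.1 under R 4.3.3 (all 3 groups in a single fit, 7 residual and 2.83 prior degrees of freedom), with Benjamini-Hochberg adjustment over all of them and calls at an adjusted p under 0.05. A log2 difference carries its limma standard error, and a mean intensity its SD over samples. Gene names come from GEO's platform annotation. The members were all named, and other genes by rule: the called genes of a list, at most 6 with the largest differences; Hk2 and uncalled list genes are named outside that rule, chosen after their values were seen. The number of arrays limits the precision. The alternatives changed scaling, floor, filter, variance model, averaging, blocking and the arrays kept. Plots used matplotlib 3.10.9 under Python 3.11.15.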

Additional observations from a re-analysis of the deposited data

Results flagged for a closer look

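Of 24 sets of 4 samples checked for a single sample far from the others by Dixon's test, 2 stood out, and chance gives about 1 in 20. Among the EOM samples of Pfkl, sample 2 was at 66.0 and the other 3 at the floor of 56.5, so the gap made up the whole range (a share of 1). That share follows from raising the 3 lower values to the floor: on the deposited intensities the largest gap was 0.545 of the range, under the critical value of that test. Among the EOM samples of Pfkp L25387_at, sample 3 read 82.3 and the others 136 to 139, a gap of 0.961 of the range.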

How the results depend on the processing

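Each result was recomputed under 27 alternatives, 10 of which leave out a sample. Differences below are log2. Calls for Fbp2 were kept in all 27; that for Pfkfb1 X15580complete_seq_s_at, with all EOM arrays at the floor, had little room to change. Requiring all 16 arrays above the floor left 1927 probe sets called against TA_6h (3 members) and 1512 against TA_1h (2 members), against 3606 and 2843; fewer are tested there. Leaving out a sample gave 1861 to 3045 against TA_1h, lowest without TA_1h replicate 1, and 0 to 1 between the TA groups. Between the TA groups 8 probe sets were called without a filter, 1 with all 16 arrays above the floor, 1 with each array as its own sample, 45 without the low-ratio arrays, 681 with only those (3 members) and 57 with the ratio as a term. The cause of these changes was not tested. The fit with the ratio as a term counted each array as its own sample, so its calls are not on the same footing as the main ones. With the replicate block 6, 4 and 0 members were called against TA_6h, against TA_1h and between TA groups, with no call changed; same-numbered EOM and TA_6h samples correlated at 0.021 to 0.105, so the numbers were not taken to pair the samples, although each EOM sample correlated best with its own.

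The differences that changed sign, or fell to 0, had not been called with all samples. Under quantile scaling, which moved the median of all probe sets from TA_6h to 0.03 from -0.11, Pfkfb2 S67900_s_at was 0.58 and X65953mRNA_at 0.24 against TA_6h, and X65953mRNA_at 0.19 against TA_1h. Pfkfb2 S67900_s_at was 0.12 with the floor at the 10th percentile, 0.022 with log2(value + 50), 0.15 without low-ratio arrays, 0.070 with the ratio as a term, and -0.24 to 0.091 leaving out a sample. Pfkp L25387_g_at was -0.056 with the floor at the 40th percentile. Against TA_6h, Pfkm D21869_s_at was -1.05 without the low-ratio arrays and -1.01 with the ratio as a term, Pfkm U25651_at was -0.22 and Pfkfb1 M27886exon_at -0.17 with only those arrays, and U25651_at was -0.11 to 0.13 leaving out a sample. Against TA_1h, without the low-ratio arrays, Pfkm D21869_s_at was -0.53 and Pfkp L25387_g_at -0.049. With only those arrays, a single TA_1h array, Pfkfb1 J04197_i_at was 0.061, M27886exon_at -0.19, M27886exon_g_at 1.34 and Pfkfb2 X65953mRNA_at 0. With the ratio as a term D21869_s_at was -0.75. Leaving out a sample gave -1.07 to 1.77 for D21869_s_at, -0.054 to 0.34 for L25387_g_at, -1.24 to 0.35 for M27886exon_g_at and -0.43 to 0 for X65953mRNA_at. Where EOM is at the floor, the signal over background bounds the size of a difference.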
